A study of Mus musculus with 17 samples.

Results

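A set of 9 retinoid genes was examined across 4 groups of mouse RNA-seq libraries, chosen by symbol from the 52850 symbols of the count tables. The 9 are Stra6 (retinol uptake), Aldh1a1, Aldh1a2 and Aldh1a3 (synthesis of retinoic acid), Crabp1 and Crabp2 (its binding in the cytosol), Cyp26a1 and Cyp26b1 (its breakdown) and Rarb (a nuclear receptor). They were chosen with their values in these groups known, so their levels and differences are given as a description, with standard errors and without p-values. All 9 passed the filter of at least 1 CPM, the count scaled by library size, in 2 or more libraries, Cyp26a1 through the YAP-M group alone.

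Retinoic acid is made from vitamin A. Stra6 takes up retinol from its serum carrier Rbp4, retinol dehydrogenases turn retinol into retinaldehyde, and the ALDH1A enzymes oxidise retinaldehyde to retinoic acid. CRABP proteins carry the acid within the cell, RAR and RXR receptors bind DNA as pairs and switch genes on when the acid is bound, and CYP26 enzymes degrade it. In the mouse brain the meninges are a known source of retinoic acid through Aldh1a2, and Rarb is known for its expression in the striatum. Cyp26a1 and Rarb are themselves textbook targets of retinoic acid.

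The libraries come from a study of YAP fusion proteins, altered forms of the transcriptional coactivator YAP, in supratentorial ependymoma, a forebrain tumour. The 3 YMdIDR libraries carry a construct called YAP-MΔIDR. The 4 YAP-M libraries are brain tumours raised by electroporating a YAP-M construct into the embryonic brain in utero. The 2 NSC-YAP libraries are neural progenitor cells derived from embryonic stem cells and overexpressing YAP, grown with EGF and basic FGF. The 3 SVZ libraries are wild-type. The labels of the YMdIDR libraries name both brain tumour and stem cell-derived neural progenitors, and those of the SVZ libraries name wild-type treatment together with brain tumour, while the RNA protocol also lists normal brain. Neither strain, age nor sex is given, nor the promoter of any construct, nor whether replicates came from separate animals or cultures, so p-values measure only the spread between these samples, which may be technical.

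Total counts ran from 20784130 to 25463303 per library, so that 3 counts in a library correspond to 0.110 to 0.147 CPM, and mitochondrial genes took 4.91% to 7.05% of the counts in YMdIDR, YAP-M and NSC-YAP and 12.7% to 16.98% in SVZ. Yap1 stood at 184 to 1274 CPM in YMdIDR, 92.7 to 105 CPM in YAP-M, 238 and 241 CPM in NSC-YAP and 21.5 to 27.9 CPM in SVZ. YMdIDR replicate 1 stood apart from its group, with 184 CPM of Yap1 against 838 and 1274 CPM, and 219 CPM of the fibroblast gene Dcn against 24.6 and 10.5 CPM. The 6 macrophage and microglia markers, all detected, summed to 1448 to 1597 CPM in YMdIDR, 1211 to 1907 CPM in YAP-M, 41.2 and 43.2 CPM in NSC-YAP and 226 to 309 CPM in SVZ. The 6 neural stem and progenitor markers summed to 506 to 547 CPM in YMdIDR, 192 to 355 CPM in YAP-M, 1730 and 1794 CPM in NSC-YAP and 220 to 252 CPM in SVZ. The 9 markers of striatal medium spiny neurons summed to 9.10 to 77.1 CPM in YMdIDR, YAP-M and NSC-YAP and to 1881 to 2139 CPM in SVZ.

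The promoters of 2 listed genes held the kind of site that RAR and RXR pairs bind. They are shown because these genes were highest in different groups, Cyp26a1 in YAP-M and Rarb in SVZ. The 2 genes were not opposite throughout, since both were lower in YMdIDR than in YAP-M. RefSeq promoter windows (GRCm38.p6, 250 bases before to 50 after a start) were matched for 7 of the 9 genes, in 11 windows, and not for Crabp2 or Aldh1a3. A direct repeat of AGGTCA or AGTTCA or GGGTCA or GGTTCA, in any combination on 1 strand with a 5-base spacer (DR5), was searched on both strands. It was in 32 of 32851 windows of all genes, or 0.0974%, and in 2 of the 11. Both matches are in genes already known as retinoic acid targets, so the 2 shares are no test of enrichment. The 250 bases before the start are printed below on the gene's strand, with the 6-base elements of the repeat in capitals. For Cyp26a1 they are chr19:37697558-37697807 (plus strand), where the repeat reads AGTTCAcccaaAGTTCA on the opposite strand and ends 16 bases before the start. For Rarb they are chr14:16575477-16575726 (minus strand), before a start inside the gene, where the repeat reads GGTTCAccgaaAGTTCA on the gene's strand and ends 37 bases before that start.
Cyp26a1: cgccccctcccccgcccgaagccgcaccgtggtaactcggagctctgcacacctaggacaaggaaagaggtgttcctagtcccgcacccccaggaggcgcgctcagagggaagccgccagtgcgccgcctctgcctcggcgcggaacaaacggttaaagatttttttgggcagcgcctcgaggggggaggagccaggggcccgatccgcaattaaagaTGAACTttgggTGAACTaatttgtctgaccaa
Rarb: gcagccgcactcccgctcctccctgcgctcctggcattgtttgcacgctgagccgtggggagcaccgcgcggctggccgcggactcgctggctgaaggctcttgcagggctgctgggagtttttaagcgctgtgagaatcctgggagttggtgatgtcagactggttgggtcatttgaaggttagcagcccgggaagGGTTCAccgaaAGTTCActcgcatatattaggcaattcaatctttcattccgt
The same repeat with a 2-base spacer was in 88 windows of all genes (0.268%) and in none of the 11, which says only that these letters are not in those windows. CATTCC, the core element bound by TEAD factors, the DNA-binding partners of YAP, was in 4817 windows (14.7%) and in 3 of the 11, those of Crabp1, Rarb and the first of Aldh1a1. None of these matches shows that a factor bound there.

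**Figure D1:**
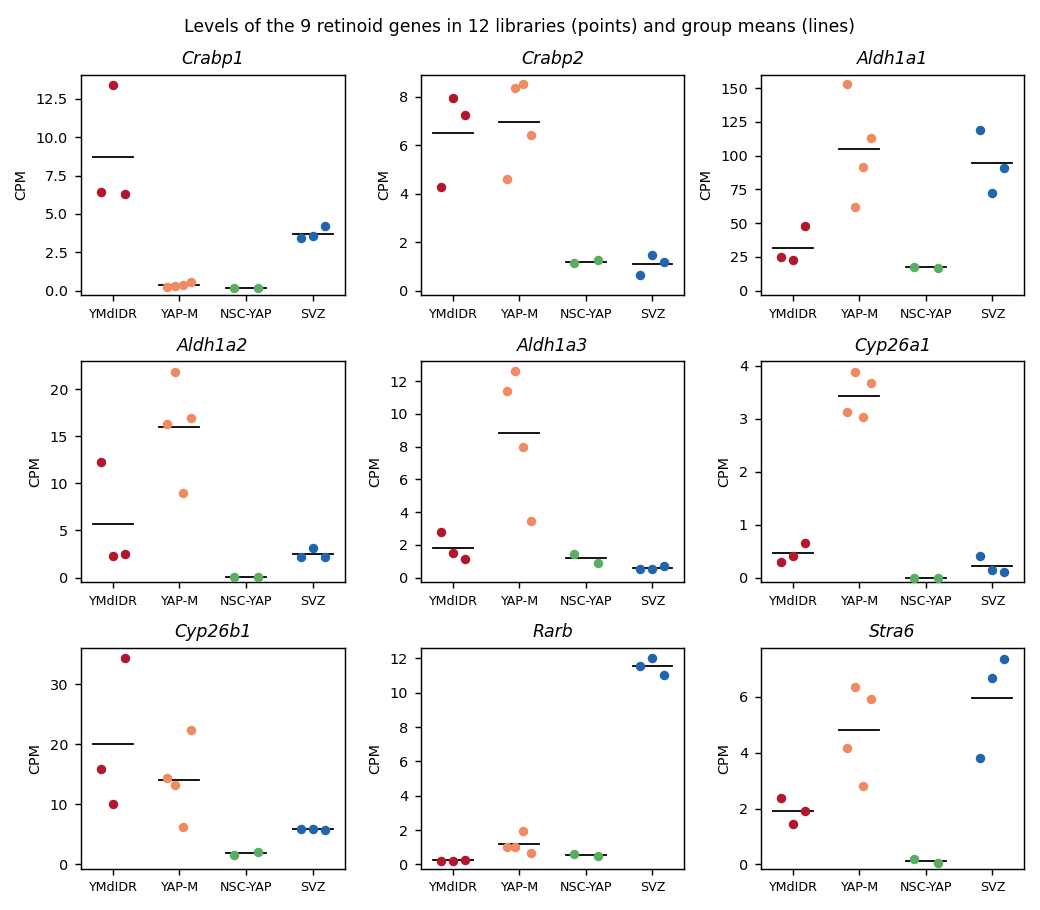
Level of each of the 9 retinoid genes in CPM (vertical axes, linear) in the 12 libraries (points) of YMdIDR, YAP-M, NSC-YAP and SVZ, with group means as lines. Crabp1 is highest in YMdIDR (6.27 to 13.4 CPM), Cyp26a1 in YAP-M (3.03 to 3.89 CPM) and Rarb in SVZ (11.04 to 12 CPM), and no gene is highest in NSC-YAP.

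Uptake was considered first. Stra6 (ENSMUSG00000032327, mm10 chromosome 9, 58063788 to 58153996, plus strand), the membrane receptor through which cells take up retinol, had 2.39, 1.44 and 1.90 CPM in YMdIDR, 4.16, 6.37, 2.81 and 5.94 CPM in YAP-M, 0.204 and 0.0408 CPM in NSC-YAP, and 3.82, 6.70 and 7.38 CPM in SVZ. Every YMdIDR library lay below every YAP-M and SVZ library, the YAP-M and SVZ ranges overlapped, and NSC-YAP was lowest with 6 counts in all. The fitted log2 difference was -1.33 ± 0.38 (SE) for YMdIDR against YAP-M, -1.64 ± 0.40 for YMdIDR against SVZ and -0.31 ± 0.35 for YAP-M against SVZ. Differences against NSC-YAP rest on its few counts: YAP-M exceeded NSC-YAP by 5.24 ± 0.63, or by 6.73 without NSC-YAP replicate 1 and 4.52 without replicate 2, and YMdIDR exceeded it by 3.91 ± 0.64, or by 5.37 and 3.18. NSC-YAP was lower than SVZ at -5.55 ± 0.64, or -6.99 without NSC-YAP replicate 1 and -4.83 without replicate 2. Stra6 is also expressed in choroid plexus epithelium, and the 7 markers of that epithelium summed to 24.0 to 57.4 CPM in YMdIDR, 33.3 to 67.2 CPM in YAP-M, 1.22 and 1.43 CPM in NSC-YAP, where Kl and Clic6 were at 0, and 76.6 to 194 CPM in SVZ. Ttr, a gene of retinoid transport outside these 7, varied more within groups. It stood at 7.02 to 653 CPM in YMdIDR, 0.682 to 259 CPM in YAP-M and 907 to 2254 CPM in SVZ, with 1 count in all in NSC-YAP. The part of that epithelium in the Stra6 levels was not tested. In bulk samples fewer cells of a type and less RNA per cell cannot be told apart, for this gene as for the others.

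Of the synthesising enzymes, Aldh1a1 (ENSMUSG00000053279, chromosome 19, 20492715 to 20643462, plus strand), a broadly expressed retinaldehyde dehydrogenase, had 24.8, 22.9 and 47.6 CPM in YMdIDR, 153, 62.3, 91.7 and 113 CPM in YAP-M, 17.3 and 17.1 CPM in NSC-YAP, and 119, 72.7 and 90.7 CPM in SVZ. Both the YMdIDR and the NSC-YAP libraries lay below all YAP-M and SVZ libraries, whose ranges overlapped. The fitted log2 difference was -1.73 ± 0.33 (SE) for YMdIDR against YAP-M, -1.57 ± 0.35 for YMdIDR against SVZ, 2.61 ± 0.41 for YAP-M against NSC-YAP and -2.45 ± 0.42 for NSC-YAP against SVZ. It was 0.16 ± 0.32 for YAP-M against SVZ and 0.88 ± 0.40 for YMdIDR against NSC-YAP, or 0.47 without YMdIDR replicate 3. Its close paralog Aldh1a7, which may share reads with it, stood at 0.783 to 10.8 CPM over the 12 libraries, with the highest value in YMdIDR replicate 2, so single values of Aldh1a1 carry that uncertainty.

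Aldh1a2 (ENSMUSG00000013584, chromosome 9, 71215789 to 71296243, plus strand), the main enzyme of the early embryo, had 12.2, 2.30 and 2.47 CPM in YMdIDR, 16.3, 21.9, 8.96 and 17.0 CPM in YAP-M, 0.0407 and 0.0408 CPM in NSC-YAP, and 2.21, 3.15 and 2.20 CPM in SVZ. YAP-M was high in all 4 libraries, YMdIDR replicate 1 lay within the YAP-M range and the other YMdIDR libraries within that of SVZ. The log2 difference of YMdIDR and YAP-M was -1.50 ± 0.54 (SE), and -2.75 without YMdIDR replicate 1. YAP-M exceeded SVZ by 2.67 ± 0.58, and YMdIDR stood at 1.17 ± 0.58 against SVZ, or -0.08 without YMdIDR replicate 1. NSC-YAP held 2 counts in all. The fitted log2 difference of YMdIDR and NSC-YAP was 6.95 ± 1.14, or 5.70 without YMdIDR replicate 1. The ratio to NSC-YAP was 399 for YAP-M (95% counting interval 110 to 3300), 141 for YMdIDR (38.9 to 1171), and SVZ was 62.1 times NSC-YAP (16.9 to 517). Such intervals, and the floors used further on, cover counting error only.

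Markers of meningeal fibroblasts, a known site of Aldh1a2 in the brain, were measured in the same libraries. The 8 markers summed to 7111 to 10700 CPM in YMdIDR, 2493 to 4467 CPM in YAP-M, 13.9 and 16.3 CPM in NSC-YAP, where Lum and Slc22a6 were at 0, and 215 to 296 CPM in SVZ. Igf2 made up most of these sums in YMdIDR and YAP-M. Without Igf2, a change made after the values were seen, the other 7 summed to 1511, 830 and 349 CPM in YMdIDR, 1127, 1164, 351 and 1390 CPM in YAP-M, 12.5 and 15.4 CPM in NSC-YAP and 111 to 130 CPM in SVZ. Like Aldh1a2, these sums were lowest in NSC-YAP, but they did not order the other libraries as Aldh1a2 did. Aldh1a2 averaged 5.67 CPM in YMdIDR and 16.0 CPM in YAP-M. The full sum was higher in YMdIDR than in YAP-M, but it was mostly Igf2. Without Igf2 the sums of these 2 groups overlapped. YMdIDR replicates 2 and 3 had 830 and 349 CPM of the 7 markers at Aldh1a2 levels within the SVZ range. Within groups, YMdIDR replicate 1 and YAP-M replicate 3 were at the same end for both measures, whereas YAP-M replicate 2 had the most Aldh1a2 and not the highest sum. The part of these cells in the Aldh1a2 levels was not tested.

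Aldh1a3 (ENSMUSG00000015134, chromosome 7, 66390890 to 66427517, minus strand), a retinaldehyde dehydrogenase of the developing eye and nose, had 2.78, 1.49 and 1.10 CPM in YMdIDR, 11.4, 12.6, 7.97 and 3.45 CPM in YAP-M, 1.47 and 0.897 CPM in NSC-YAP, and 0.507, 0.539 and 0.684 CPM in SVZ. YAP-M was above and SVZ below every other library, and YMdIDR overlapped NSC-YAP. The fitted log2 difference was -2.30 ± 0.46 (SE) for YMdIDR against YAP-M, 2.90 ± 0.56 for YAP-M against NSC-YAP and 3.93 ± 0.52 for YAP-M against SVZ. It was 1.63 ± 0.53 for YMdIDR against SVZ, or 1.16 without YMdIDR replicate 1, and 1.03 ± 0.59 for NSC-YAP against SVZ, or 0.67 without NSC-YAP replicate 1.

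**Figure D2:**
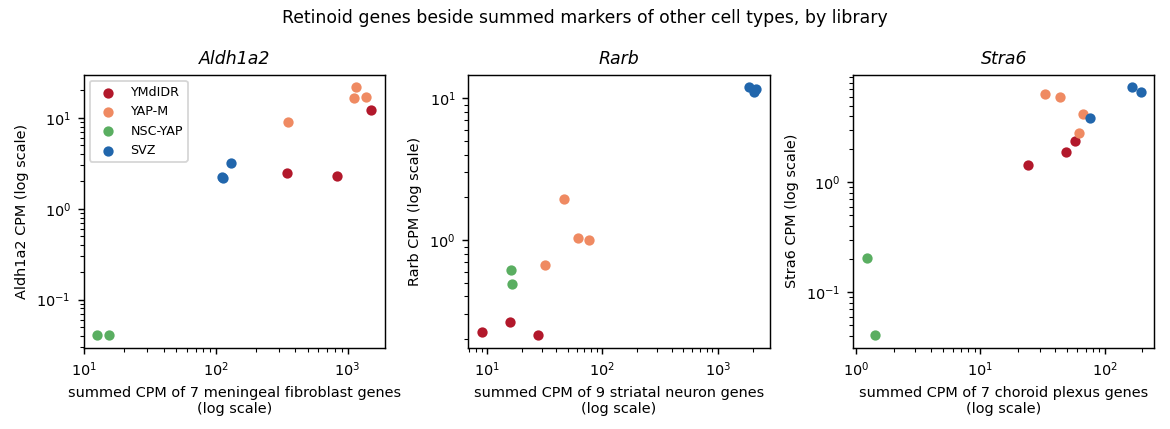
Each point is 1 library, with a listed gene's CPM (vertical, log scale) against the summed CPM of markers of another cell type (horizontal, log scale), coloured by group. The panels set Aldh1a2 beside 7 meningeal fibroblast markers, Rarb beside 9 striatal neuron markers and Stra6 beside 7 choroid plexus markers, and the NSC-YAP libraries are lowest for Aldh1a2 and Stra6 on both axes while the SVZ libraries are highest for Rarb on both.

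The binding proteins parted from each other. Crabp1 (ENSMUSG00000032291, chromosome 9, 54764748 to 54773110, plus strand), a cytosolic carrier linked to the breakdown of retinoic acid, had 6.45, 13.4 and 6.27 CPM in YMdIDR, 0.221, 0.296, 0.384 and 0.594 CPM in YAP-M, 0.163 and 0.204 CPM in NSC-YAP, and 3.41, 3.55 and 4.203 CPM in SVZ. The groups did not overlap, in the order YMdIDR, SVZ, YAP-M and NSC-YAP. The log2 difference was 4.53 ± 0.37 (SE) for YMdIDR against YAP-M, the only listed gene called higher in that comparison, and -3.30 ± 0.37 for YAP-M against SVZ. YMdIDR exceeded NSC-YAP by 5.53 ± 0.54, and NSC-YAP stood at -4.30 ± 0.53 against SVZ with 9 counts in all. YMdIDR stood at 1.23 ± 0.34 against SVZ, or 0.80 without YMdIDR replicate 2, and YAP-M at 1.01 ± 0.55 against NSC-YAP.

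Crabp2 (ENSMUSG00000004885, chromosome 3, 87948666 to 87953376, plus strand), which delivers retinoic acid to RAR in the nucleus, had 4.27, 7.97 and 7.24 CPM in YMdIDR, 4.60, 8.37, 8.53 and 6.42 CPM in YAP-M, 1.14 and 1.26 CPM in NSC-YAP, and 0.645, 1.48 and 1.17 CPM in SVZ. YMdIDR and YAP-M lay above NSC-YAP and SVZ, and ranges overlapped within each of these pairs. The log2 difference was -0.10 ± 0.31 (SE) for YMdIDR against YAP-M, or 0.13 without YMdIDR replicate 1, 2.43 ± 0.42 for YMdIDR and 2.53 ± 0.41 for YAP-M against NSC-YAP, and 2.55 ± 0.36 for YMdIDR and 2.66 ± 0.35 for YAP-M against SVZ. For NSC-YAP against SVZ it was 0.13 ± 0.42, or -0.13 without SVZ replicate 1.

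Of the enzymes that degrade retinoic acid, Cyp26a1 (ENSMUSG00000024987, chromosome 19, 37697808 to 37701528, plus strand), whose upstream sequence is printed above, had 0.299, 0.405 and 0.662 CPM in YMdIDR, 3.13, 3.89, 3.03 and 3.67 CPM in YAP-M, 0 in both NSC-YAP libraries, and 0.415, 0.135 and 0.0977 CPM in SVZ. YAP-M stood above every other library, and YMdIDR overlapped SVZ, where the 3 libraries held 14 counts in all. The log2 difference was -2.90 ± 0.42 (SE) for YMdIDR against YAP-M and 3.95 ± 0.46 for YAP-M against SVZ, or 4.86 without SVZ replicate 1. YMdIDR stood at 1.05 ± 0.52 against SVZ, or 1.92 without SVZ replicate 1. Against a floor of 3 counts over the NSC-YAP group, YAP-M was at least 56.3-fold higher and YMdIDR at least 7.43-fold higher than NSC-YAP. No fold is given for NSC-YAP against SVZ, since 9 of the 14 SVZ counts were in replicate 1.

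Cyp26b1 (ENSMUSG00000063415, chromosome 6, 84571414 to 84593908, minus strand), the related enzyme of the developing limb and brain, had 15.9, 10.1 and 34.4 CPM in YMdIDR, 14.5, 13.2, 6.23 and 22.5 CPM in YAP-M, 1.63 and 2.04 CPM in NSC-YAP, and 5.85, 5.98 and 5.82 CPM in SVZ. YMdIDR overlapped YAP-M, the lowest YAP-M library lay just above SVZ, and NSC-YAP was below all others. The log2 difference was 0.51 ± 0.42 (SE) for YMdIDR against YAP-M, 3.45 ± 0.61 for YMdIDR and 2.94 ± 0.59 for YAP-M against NSC-YAP, and 1.77 ± 0.47 for YMdIDR and 1.26 ± 0.45 for YAP-M against SVZ. Without YMdIDR replicate 3 the YMdIDR differences were -0.11 against YAP-M, 2.83 against NSC-YAP and 1.15 against SVZ. NSC-YAP stood at -1.68 ± 0.58 against SVZ.

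Rarb (ENSMUSG00000017491, chromosome 14, 16430839 to 16819156, minus strand), the retinoic acid receptor beta gene, had 0.214, 0.225 and 0.265 CPM in YMdIDR, 1.03, 1.00, 1.96 and 0.668 CPM in YAP-M, 0.611 and 0.489 CPM in NSC-YAP, and 11.6, 12 and 11.04 CPM in SVZ. No groups overlapped, in the order SVZ, YAP-M, NSC-YAP and YMdIDR. The log2 difference against SVZ was -5.59 ± 0.39 (SE) for YMdIDR, -3.31 ± 0.30 for YAP-M and -4.38 ± 0.42 for NSC-YAP. It was -2.28 ± 0.38 for YMdIDR against YAP-M, where YMdIDR held 16 counts in all, 1.07 ± 0.39 for YAP-M against NSC-YAP and -1.21 ± 0.46 for YMdIDR against NSC-YAP. Markers of striatal medium spiny neurons were, like Rarb, highest in SVZ: each of the 9 was detected in YMdIDR, YAP-M and SVZ, and Tac1 was at 0 in NSC-YAP. Their sum was 9.10 to 28.0 CPM in YMdIDR, 31.7 to 77.1 CPM in YAP-M, 16.1 and 16.6 CPM in NSC-YAP, and 1881 to 2139 CPM in SVZ. As for Rarb, the YAP-M sums lay above those of YMdIDR and NSC-YAP. Unlike Rarb, the YMdIDR and NSC-YAP sums overlapped. Within YMdIDR, the 16 Rarb counts are too few to order the libraries against these sums. The part of these neurons in the Rarb levels was not tested.

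Levels of related genes were set side by side after division by the 1 length given for each gene with the counts. That length need not be that of the transcripts expressed, so close shares are uncertain. On the scale of CPM per kilobase, Crabp1 took 58.8% to 73.5% of the summed CRABP level in YMdIDR, 5.51% to 13.2% in YAP-M, 19.1% and 21.0% in NSC-YAP, and 79.8% to 89.7% in SVZ, so Crabp2 was the more abundant in YAP-M and NSC-YAP alone. The summed CRABP level was 11.3 to 22.8 CPM per kilobase in YMdIDR, 3.75 to 6.93 in YAP-M, 1.07 and 1.21 in NSC-YAP and 4.74 to 6.13 in SVZ. Aldh1a1 held most of the summed ALDH1A level in 11 of the 12 libraries, and the exception was YMdIDR replicate 1, where Aldh1a2 took 49.0% and Aldh1a1 45.5%. The summed ALDH1A level was 5.97 to 11.02 CPM per kilobase in YMdIDR, 24.3 to 40.7 in YAP-M, 3.68 and 3.85 in NSC-YAP and 16.2 to 25.2 in SVZ. Cyp26a1 took 5.36% to 10.8% of the summed CYP26 level in YMdIDR, 33.1% to 59.5% in YAP-M and 4.83% to 17.6% in SVZ. Rarb took 0.179% to 0.211% of the summed RAR level in YMdIDR, 0.871% to 4.58% in YAP-M, 0.561% and 0.701% in NSC-YAP, and 32.9% to 34.5% in SVZ.

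**Figure D3:**
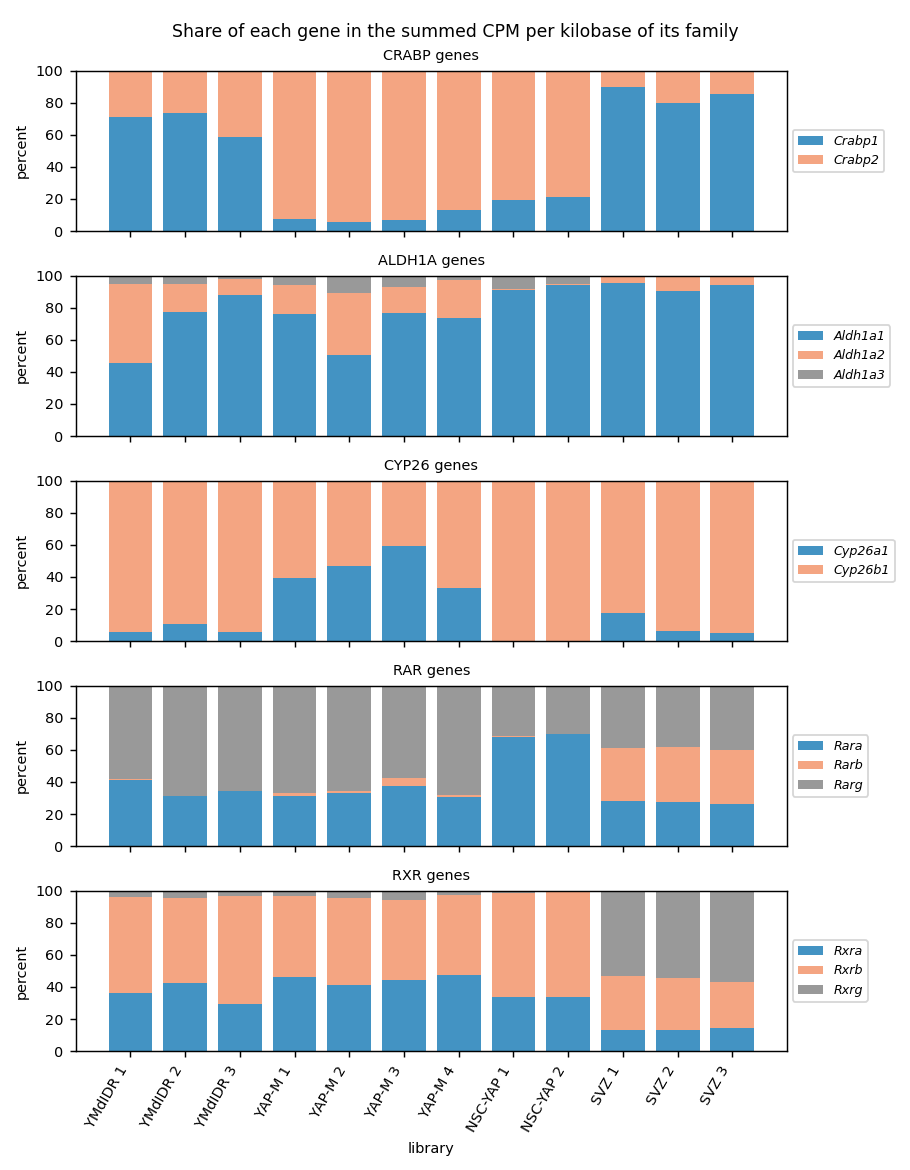
Share of each gene (percent, vertical axes from 0) in the summed CPM per kilobase of its family, by library. Crabp1 fills most of the CRABP bar in YMdIDR and SVZ and little of it in YAP-M and NSC-YAP, and Rarb and Rxrg take a visible share of their families in SVZ, at 32.9% to 34.5% and 53.2% to 56.6%.

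The 6 comparisons share libraries, so their values are given side by side. Calls required both an adjusted p below 0.05 from the quasi-likelihood test of edgeR, corrected by Benjamini-Hochberg over 18329 genes, and a log2 difference of 1 or more in size. Because the rule for the 9 genes used these comparisons, the counts below are descriptions that support nothing. In YMdIDR against YAP-M, where 6.78% of all genes tested were called higher and 9.61% lower, 1 of the 9 was called higher and 6 lower, with a median log2 difference of -1.50 against -0.01 for all genes. In YAP-M against NSC-YAP, with 28.9% of all genes called higher and 21.6% lower, 8 of the 9 were called higher, with a median of 2.90 against 0.10. In YMdIDR against NSC-YAP, with 27.4% of all genes called higher and 20.4% lower, 6 were called higher and 1, Rarb, lower, with a median of 3.45, or 2.89 with Cyp26a1 at its bound, against 0.13. In YAP-M against SVZ, with 25.8% called higher and 28.9% lower, 5 were called higher and 2, Crabp1 and Rarb, lower, with a median of 1.26 against -0.04. In YMdIDR against SVZ, with 26.9% called higher and 29.6% lower, 4 were called higher and 3 lower, with a median of 1.17 against -0.01. In NSC-YAP against SVZ, with 27.6% of all genes called lower, 7 were called lower, with a median of -4.30, or -2.45 with Cyp26a1 at its bound, against -0.10.

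Some of these calls changed with the libraries fitted. The call of Aldh1a2 in YMdIDR against YAP-M was lost when each of 10 of the 12 libraries in turn was left out and with the compared groups alone (-1.51), and that of Stra6 without YMdIDR replicate 2 (-1.20). For Aldh1a2 the 10 included every NSC-YAP and SVZ library, none of which is in the comparison, with differences of -1.50 to -1.53. The call of Rarb in YAP-M against NSC-YAP was lost without YAP-M replicate 3 (0.75) or either NSC-YAP library (1.25 and 0.90) and with the compared groups alone (1.12). In YMdIDR against NSC-YAP its call was lost without any of the 5 libraries compared (-1.06 to -1.38), without a filter (-1.19) and with DESeq2 (-1.18). Against SVZ, the call of Cyp26b1 in YAP-M was lost without YAP-M replicate 4 (0.997) or SVZ replicate 1 (1.30) or 3 (1.30), that in NSC-YAP without either NSC-YAP library (-1.49 and -1.84), and those in YMdIDR of Crabp1 without replicate 2 and of Aldh1a3 without replicate 1, at the values given above. Aldh1a1 became called in YMdIDR against NSC-YAP without YMdIDR replicate 1 (1.04) or 2 (1.07). Against SVZ, Aldh1a2 became called in YMdIDR without replicate 2 (1.57) or 3 (1.53), Cyp26a1 in YMdIDR without SVZ replicate 1, and Aldh1a3 in NSC-YAP without YAP-M replicate 4 (1.08).

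**Figure D4:**
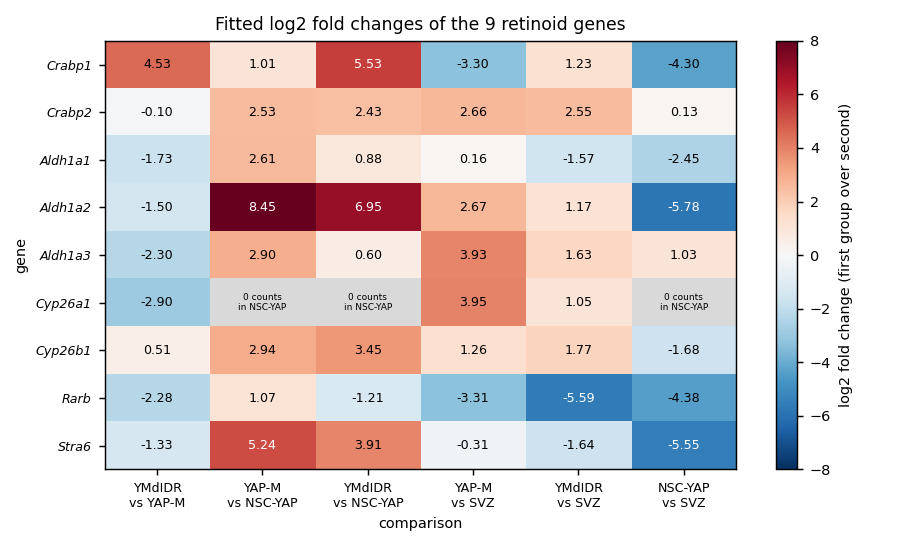
Fitted log2 fold change of each listed gene (rows) in the 6 comparisons (columns), first group over second, with red for higher and blue for lower in the first group and colours ending at 8. Grey cells mark Cyp26a1 against NSC-YAP, which held 0 counts, and the column of YMdIDR over YAP-M runs from -2.90 for Cyp26a1 to 4.53 for Crabp1, with 7 of the 9 values below 0.

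A further 56 genes of the retinoid pathway, listed by role, were set beside the 9, and 43 of them were tested. This list too was chosen with earlier results of these data known. Most genes named from it below were picked for small adjusted p, so the p-values printed for them are descriptions and not independent evidence. In YMdIDR against YAP-M, 4 of the 43 were called higher, 5 lower and 34 were not called (20.9% called either way, against 16.4% of all genes tested; median log2 difference 0.05). Without YMdIDR replicate 2 that count was 2 higher, and without YMdIDR replicate 1 it was 9 lower. In YAP-M against NSC-YAP 17 were higher and 10 lower (62.8% against 50.4%; median 0.62), and in YMdIDR against NSC-YAP 18 and 7 (58.1% against 47.8%; median 0.24). Against SVZ, YAP-M had 12 higher and 11 lower (53.5% against 54.7%; median 0.06), YMdIDR 12 and 10 (51.2% against 56.5%; median 0.08) and NSC-YAP 9 and 14 (53.5% against 45.1%; median -0.40, or -0.35 with genes at 0 set to their bounds).

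Of 12 dehydrogenases, reductases and oxygenases tested, 1, Rdh5, was higher and 2, Rdh10 and Dhrs9, lower in YMdIDR against YAP-M, where 6.78% of all genes were called higher and 9.61% lower. The call of Dhrs9 was lost without YMdIDR replicate 1 or 2 or YAP-M replicate 2 or 3 (-1.39 to -1.05). Rdh10, the main retinol dehydrogenase of the embryo, stood at 13.9 to 28.7 CPM in YMdIDR, 43.0 to 60.97 CPM in YAP-M, 14.6 and 15.0 CPM in NSC-YAP and 13.5 to 16.7 CPM in SVZ, so the YAP-M libraries were above all others. It fell in YMdIDR against YAP-M at -1.47 ± 0.23 (SE, edgeR adjusted p = 0.00058). Rdh5, known as a retinol dehydrogenase of the visual cycle, stood at 3.60 to 5.60 CPM in YMdIDR, 0.597 to 1.82 CPM in YAP-M, 42.4 and 43.4 CPM in NSC-YAP and 4.69 to 5.44 CPM in SVZ. Rdh5 rose by 2.00 ± 0.29 in YMdIDR against YAP-M (edgeR adjusted p = 0.000385) and fell in YAP-M against NSC-YAP at -5.24 ± 0.31 (edgeR adjusted p = 9.45e-08).

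The other receptor genes had other profiles. Rara, the alpha receptor gene, stood at 29.4 to 41.1 CPM in YMdIDR, 12.1 to 19.5 CPM in YAP-M, 49.2 and 50.3 CPM in NSC-YAP and 6.99 to 8.24 CPM in SVZ, with no overlap of groups. Rara rose by 1.19 ± 0.17 in YMdIDR against YAP-M (SE, edgeR adjusted p = 0.000371), by 2.20 ± 0.19 in YMdIDR against SVZ (edgeR adjusted p = 1.37e-06) and by 2.69 ± 0.21 in NSC-YAP against SVZ (edgeR adjusted p = 9.06e-07). Where Rarb was lowest in YMdIDR, Rarg, the gamma receptor gene, had its highest levels there, at 54.4 to 64.1 CPM against 19.3 to 41.0 CPM in YAP-M, 20.3 and 21.2 CPM in NSC-YAP and 10.1 to 10.6 CPM in SVZ. Among the RXR partners, Rxrg like Rarb was highest in SVZ, at 1.28 to 1.98 CPM in YMdIDR, 1.11 to 1.83 CPM in YAP-M, 0.489 and 0.611 CPM in NSC-YAP and 48.1 to 54.6 CPM in SVZ. Against SVZ, Rxrg fell in YMdIDR at -4.89 ± 0.24 (edgeR adjusted p = 2.19e-08), in YAP-M at -5.15 ± 0.21 (edgeR adjusted p = 1.01e-08) and in NSC-YAP at -6.53 ± 0.32 (edgeR adjusted p = 5.29e-08). The striatal neuron markers given above were likewise highest in SVZ, but so were markers of other cells. The 7 general neuron markers summed to 3442 to 3791 CPM in SVZ and to at most 452.5 CPM in any other library. The 5 oligodendrocyte markers summed to 24180 to 28760 CPM in SVZ and to at most 2840 CPM in any other library. The part of any of these cells in the Rxrg or Rarb levels was not tested. Rxra was not called in any of the 6 comparisons with edgeR, with log2 differences of 0.01 to 0.37.

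Ncoa1, a coactivator of nuclear receptors, stood at 13.6 to 19.9 CPM in YMdIDR, 34.5 to 43.9 CPM in YAP-M, 91.0 and 104 CPM in NSC-YAP and 105 to 108 CPM in SVZ. It was the pathway gene with the smallest adjusted p in YMdIDR against YAP-M, at -1.28 ± 0.14 (SE, edgeR adjusted p = 7.78e-05), and against SVZ it fell at -2.71 ± 0.15 in YMdIDR (edgeR adjusted p = 4.29e-08) and -1.43 ± 0.13 in YAP-M (edgeR adjusted p = 1.68e-06).

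Of the genes known to respond to retinoic acid, 13 were tested. In YMdIDR against NSC-YAP 8 were called higher and 3 lower, beside 27.4% and 20.4% of all genes, and in YAP-M against NSC-YAP likewise 8 and 3, beside 28.9% and 21.6%. Against SVZ, 5 were higher and 5 lower in YMdIDR (26.9% and 29.6% of all genes), 6 and 4 in YAP-M (25.8% and 28.9%) and 3 and 7 in NSC-YAP (17.5% and 27.6%). In YMdIDR against YAP-M 2, Rarres1 and Cd38, were lower (9.61% of all genes). Rarres1, a retinoid-induced gene in human skin, stood at 3.72 to 6.80 CPM in YMdIDR, 10.9 to 16.9 CPM in YAP-M, 0.244 and 0.367 CPM in NSC-YAP and 0.831 to 1.38 CPM in SVZ, with a log2 difference of -1.50 ± 0.26 in YMdIDR against YAP-M (SE, edgeR adjusted p = 0.00114) and 3.70 ± 0.30 in YAP-M against SVZ (edgeR adjusted p = 8.37e-07). Cd38, an enzyme gene that consumes NAD, stood at 5.58 to 13.4 CPM in YMdIDR, 19.6 to 24.6 CPM in YAP-M, 0.326 and 0.449 CPM in NSC-YAP and 12.02 to 13.3 CPM in SVZ, with a difference of -1.33 ± 0.26 in YMdIDR against YAP-M (edgeR adjusted p = 0.00237).

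Gprc5a and Tgm2 were high in both YMdIDR and YAP-M. Gprc5a, an orphan receptor gene first found as retinoid-induced, stood at 86.1 to 113 CPM in YMdIDR and 75.6 to 113 CPM in YAP-M, against 4 counts in all in NSC-YAP and 7 counts in all in SVZ. Against SVZ, Gprc5a rose by 9.72 ± 0.42 in YMdIDR (SE, edgeR adjusted p = 1.04e-08) and by 9.79 ± 0.41 in YAP-M (edgeR adjusted p = 1.22e-08), or by 10.90 and 11.01 without SVZ replicate 3. Tgm2, the tissue transglutaminase gene, stood at 57.2 to 94.1 CPM in YMdIDR, 39.1 to 71.1 CPM in YAP-M, 1.22 and 1.39 CPM in NSC-YAP and 5.43 to 6.11 CPM in SVZ. It rose against SVZ by 3.72 ± 0.25 in YMdIDR (edgeR adjusted p = 2.22e-07) and by 3.29 ± 0.24 in YAP-M (edgeR adjusted p = 4.43e-07).

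Nr2f2 and Bhlhe40 followed other patterns. Nr2f2, an orphan nuclear receptor gene, stood at 63.9 to 87.5 CPM in YMdIDR, 37.6 to 57.7 CPM in YAP-M, with 2 counts in all in NSC-YAP, both in replicate 2, and 40.8 to 43.0 CPM in SVZ. Its ratio to NSC-YAP was 1760 in YMdIDR (95% counting interval 487 to 14530) and 1081 in YAP-M (299 to 8927). Bhlhe40, a transcriptional repressor gene, stood at 51.4 to 74.8 CPM in YMdIDR, 89.0 to 124 CPM in YAP-M, 335 and 337 CPM in NSC-YAP and 43.0 to 53.2 CPM in SVZ, and rose in NSC-YAP against SVZ by 2.80 ± 0.18 (SE, edgeR adjusted p = 2.51e-07).

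**Figure D5:**
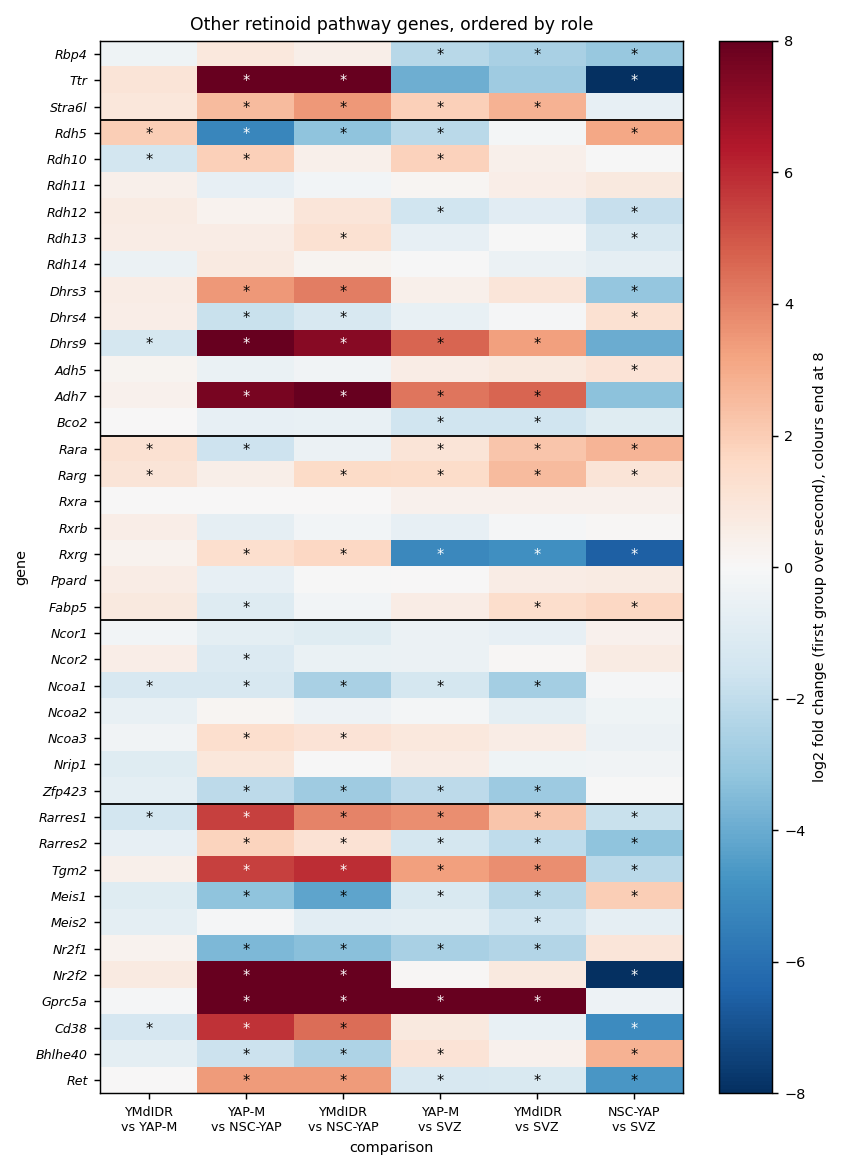
Fitted log2 fold change of other retinoid pathway genes (rows) in the 6 comparisons (columns), first group over second, with asterisks at called genes and lines between roles: carriers, dehydrogenases and related enzymes, receptors and delivery, co-regulators, and responsive genes. The column of YMdIDR over YAP-M holds the fewest asterisks, and Rxrg is dark blue in the 3 comparisons with SVZ; fitted values of Dhrs9 and Adh7 against NSC-YAP, where both had 0 counts, are no measure of size.

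For each listed gene, the tested genes with the most similar profile over the 12 libraries were found by the root mean square difference of log2(CPM + 1), each profile centred on its own mean. Rarb lay nearest to Kif17, a kinesin gene of dendrites (0.18), and to Myo3b, a myosin gene (0.25). Cyp26a1 lay nearest to Map4k3, a kinase gene (0.26), and Fkbp5, an immunophilin gene (0.30), Crabp2 to Nop14 (0.22) and Crlf3 (0.22), and Stra6 to Lgi4 (0.28) and Rcan2 (0.31). For the others the differences were larger. They are not scaled to a gene's own range, which was 2.29 log2 units for Cyp26a1 and 4.46 for Aldh1a2. The 1 added to CPM also compresses genes at low levels, so the values do not rank similarity across genes. Aldh1a3 had Hoxd9 (0.37) and Izumo3 (0.40), Aldh1a2 had Serpind1 (0.40) and Fam26e (0.41), and Aldh1a1 had Slc22a4 (0.42) and Mgat4c (0.44). Cyp26b1 had Sox7 (0.43) and Gjc1 (0.43), and Crabp1 had Slc13a5 (0.46) and Gabre (0.50). None of the 9 had another of the 9 among its 2 nearest genes.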

How the data were processed

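RNA-seq of 12 mouse libraries was used; the other 5 of the series' 17 samples measure protein binding to DNA and were left out. Total RNA, extracted with TRIzol and then RNeasy columns, went into Illumina TruSeq libraries, per the labels' protocols. The authors deposited raw counts per gene, 1 table of 53090 entries per library, with no normalization. Per the submitters' processing notes, TopHat2 and mm10 were used; the versions, the counter and how it treated strand and multiply mapped reads were not given in the sources used here, so reads of paralogs and overlapping genes may be split or shared. The 453 entries that share a symbol (1.29% of counts in the median library) were summed.

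CPM values are counts over the total count scaled by TMM factors. The test was edgeR 4.0.16 (R 4.3.3), quasi-likelihood, on all 12 libraries with 1 coefficient per group, over the 18329 genes that reached 1 CPM in 2 or more libraries; it was tested on simulated data. All groups share 1 estimate of the spread. Values after ± are SE of log2 differences. Alternatives were median-ratio scaling, no filter, a minimum of 5 CPM, DESeq2 1.42.0, the compared groups alone, the replicate number as a block and leaving out each library. Figures used matplotlib 3.10.9 in Python 3.11.15.

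The listed genes, the pathway list and the marker lists were chosen with earlier results of these data known. Named were all 9 listed genes, up to 5 called pathway genes per comparison with the smallest adjusted p, and the 2 nearest profiles of each listed gene (predicted and unnamed genes left out). Rarg, Rxra, Dhrs9, Ttr and Aldh1a7 were named after their values were seen. A few of the pathway genes so chosen are left out of the text and figures.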

Additional observations from a re-analysis of the deposited data

How the results depend on the processing

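No called value of a listed or named pathway gene changed sign under the alternatives run. Of 54 fitted differences of the listed genes, 4 that were not called changed sign when 1 library was left out: Crabp2 in YMdIDR against YAP-M (0.13 without YMdIDR replicate 1) and in NSC-YAP against SVZ (-0.13 without SVZ replicate 1), Cyp26b1 in YMdIDR against YAP-M (-0.11 without YMdIDR replicate 3) and Aldh1a2 in YMdIDR against SVZ (-0.08 without YMdIDR replicate 1). In YMdIDR against YAP-M, the pathway genes called lower, 5 as reported, numbered 8 with median-ratio scaling, 9 without a filter and 8 with DESeq2, and all genes called higher, 1242 as reported, numbered 819 with a minimum of 5 CPM. Leaving out each library in turn gave 2 to 4 pathway genes higher (4 as reported) and 5 to 9 lower (5 as reported) in that comparison. Every other count of calls over all genes or over the whole pathway list stayed within 1.5 times its value under each alternative. This bound does not cover counts among the listed genes or within single roles. Rarb, the only listed gene called lower in YMdIDR against NSC-YAP, lost its call under several alternatives, as given above. Dhrs9, among the dehydrogenases called lower in YMdIDR against YAP-M, lost its call with the compared groups alone and without some single libraries. The cause of these shifts was not tested.

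Whether replicate numbers pair libraries across groups was not settled. Of 15 same-numbered pairs across groups, 4 had a correlation of deviations above 0.1 (median 0.004). Among 38 differently numbered pairs, 2 did (median -0.005). Deviations were taken from group means, so the 2 NSC-YAP libraries mirror each other and the pairs are not independent. The highest correlation, 0.39, was between replicates 2 of YMdIDR and YAP-M. With the replicate number as a block, YMdIDR against YAP-M had 1297 genes higher and 1628 lower, and 4 pathway genes higher and 6 lower; Stra6 stood at -1.19 in that comparison and Cyp26b1 at 0.97 in YAP-M against SVZ, and both were no longer called.

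Few counts limit Rarb in YMdIDR (16 in all), Cyp26a1 in SVZ (14), Crabp1 in NSC-YAP (9) and Stra6 in NSC-YAP (6).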
